A study of Mus musculus with 8 samples.

Results

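The HOX cluster genes were the 39 genes in the count table with a symbol made of Hox, the letter a, b, c or d, and a number, out of 55471 genes in all. Membership was set by the symbol and used no measured value, but the HOX genes were chosen for study with earlier results of these data known. They were followed in SV-LECs, a single line of mouse lymphatic endothelial cells that was derived from the adventitia of mesenteric tissue and immortalized with SV40. One group of 4 libraries (svLEC_ctrl) came from cells grown without treatment, and the other group of 4 (svLEC_tgfb1) came from the same line after 72 h with TGFβ1 at 10 ng/ml. All of the cells therefore carried SV40 and were kept in medium with serum. The stated difference between the groups was TGFβ1, a cytokine that drives mesenchymal change in epithelial and endothelial cells. How long the untreated cells were grown is not given in the sources used here. The study's methods describe the samples of a group as technical replicates, so each SD and p-value below measures the spread between such libraries and not that between independent experiments.

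HOX genes encode transcription factors that bind DNA through a homeodomain and set the identity of structures along the body axis. In mammals they lie in 4 clusters, Hoxa to Hoxd, and genes at the same position in different clusters form paralogue groups numbered 1 to 13. Genes with low numbers are used towards the head and genes with high numbers towards the tail and the limb tips, and cells of adult tissue and cell lines commonly keep a HOX pattern that goes with the place they came from. Polycomb proteins keep HOX genes silent, Trithorax proteins keep them active, and retinoic acid is a classical inducer of the genes with low numbers. Below, groups 1 to 3 are called anterior, 4 to 8 central and 9 to 13 posterior.

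Total counts were between 18952504 and 26386941 per library. Levels are given as CPM, the counts scaled to a common normalized library size, and 3 counts, the floor used here, corresponded to 0.113 to 0.162 CPM, which covers counting error only. A gene was called on in a group with at least 1 CPM in all 4 libraries, at trace level with more than 3 counts in some library but short of that, and at the floor with 3 counts or fewer in each. Of the 7 lymphatic endothelial markers examined, Prox1, Lyve1, Reln and Ccl21a were at the floor in both groups, whereas Pdpn (322 to 359 CPM), Flt4 and Nrp2 were on in the untreated cells. After TGFβ1, Flt4 and Nrp2 rose by 0.44 and 0.41 on the log2 scale, and Pdpn fell by 0.13. Of 10 markers of endothelium in general, Cdh5, Tie1, Emcn, Cldn5 and Erg were at the floor in both groups, and Eng and Kdr were on and rose after TGFβ1, by 1.21 and 0.93 on the log2 scale. Pecam1 and Vwf were at the floor in the untreated and at trace level in the treated group, and Tek was at trace level in both. Of 8 fibroblast markers 7 were on, with a summed level of 11000 to 13999 CPM in the untreated and 12179 to 13742 CPM in the treated libraries. Among them Dcn, Pdgfra, Thy1 and Col3a1 fell (log2 fold changes -1.91, -1.47, -1.07 and -0.92), Col1a1 and Pdgfrb rose by 0.81 and 0.63, and Col1a2 was not called. Thus only 3 of the 7 lymphatic and 2 of the 10 general endothelial markers were on. Most markers defining a lymphatic endothelial cell were low or absent in the RNA, and the cells are called SV-LECs here as labelled. The 5 smooth muscle markers all rose after TGFβ1, their summed level going from between 836 and 898 to between 2101 and 2220 CPM. Of 5 epithelial markers 1 was on in each group, 2 rose and 1 fell. Of 5 leukocyte markers 1 was on in each group, and 1 rose. The part of these shifts in the HOX values was not tested, and in bulk RNA fewer cells expressing a gene and less RNA per cell cannot be told apart.

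SV-LECs expressed most of their HOX genes before any treatment. In the untreated group 30 of the 39 genes were on, 6 were at trace level (Hoxb13, Hoxd1, Hoxd4, Hoxd10, Hoxd11 and Hoxd13) and 3 were at the floor (Hoxb1, Hoxd3 and Hoxd12). All 11 Hoxa genes and all 9 Hoxc genes were on, as were 8 of 10 Hoxb genes, but only Hoxd8 and Hoxd9 were on among the 9 Hoxd genes. Hoxb1 and Hoxd12 had 0 counts in all 8 libraries, and Hoxd3 had a single count in 1 untreated library. Hoxd8 and Hoxd9 are neighbours in the middle of their cluster, with genes at trace level or at the floor on both sides. After TGFβ1, 29 genes were on. Hoxc5 left that class because 1 treated library was at 0.924 CPM, and Hoxd4 moved from trace to the floor.

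To compare levels between genes, CPM was divided by the combined length in kilobases of all annotated exons of a gene, whichever transcript was expressed. The order therefore depends on the annotation. Hoxa9, for example, was at 45.3 CPM untreated but had 5580 bases of exons, which gave 8.11 CPM per kb. On that scale Hoxa10 was highest in the untreated cells with 20.3 ± 0.674 CPM per kb (SD, n = 4), followed by Hoxa11 with 16.0 ± 1.14, Hoxb9 with 14.7 ± 0.740, Hoxd8 with 11.4 ± 0.476 and Hoxc10 with 10.8 ± 0.648. Neighbours in this order overlapped within 1 SD for Hoxa11 with Hoxb9 and for Hoxd8 with Hoxc10, and not for Hoxa10 with Hoxa11. The posterior genes therefore led the untreated pattern, with the central gene Hoxd8 among them. Among the anterior genes Hoxb3 stood at 2.44 CPM per kb and Hoxb2 at 2.08. After TGFβ1 the order at the top was different. Hoxc13 came first with 20.2 ± 0.375 CPM per kb, Hoxc10 with 11.8 ± 0.914 and Hoxa11 with 11.2 ± 0.317 followed, and Hoxb9 with 8.46 ± 0.307 and Hoxa10 with 8.37 ± 0.406 came after them.

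**Figure D1:**
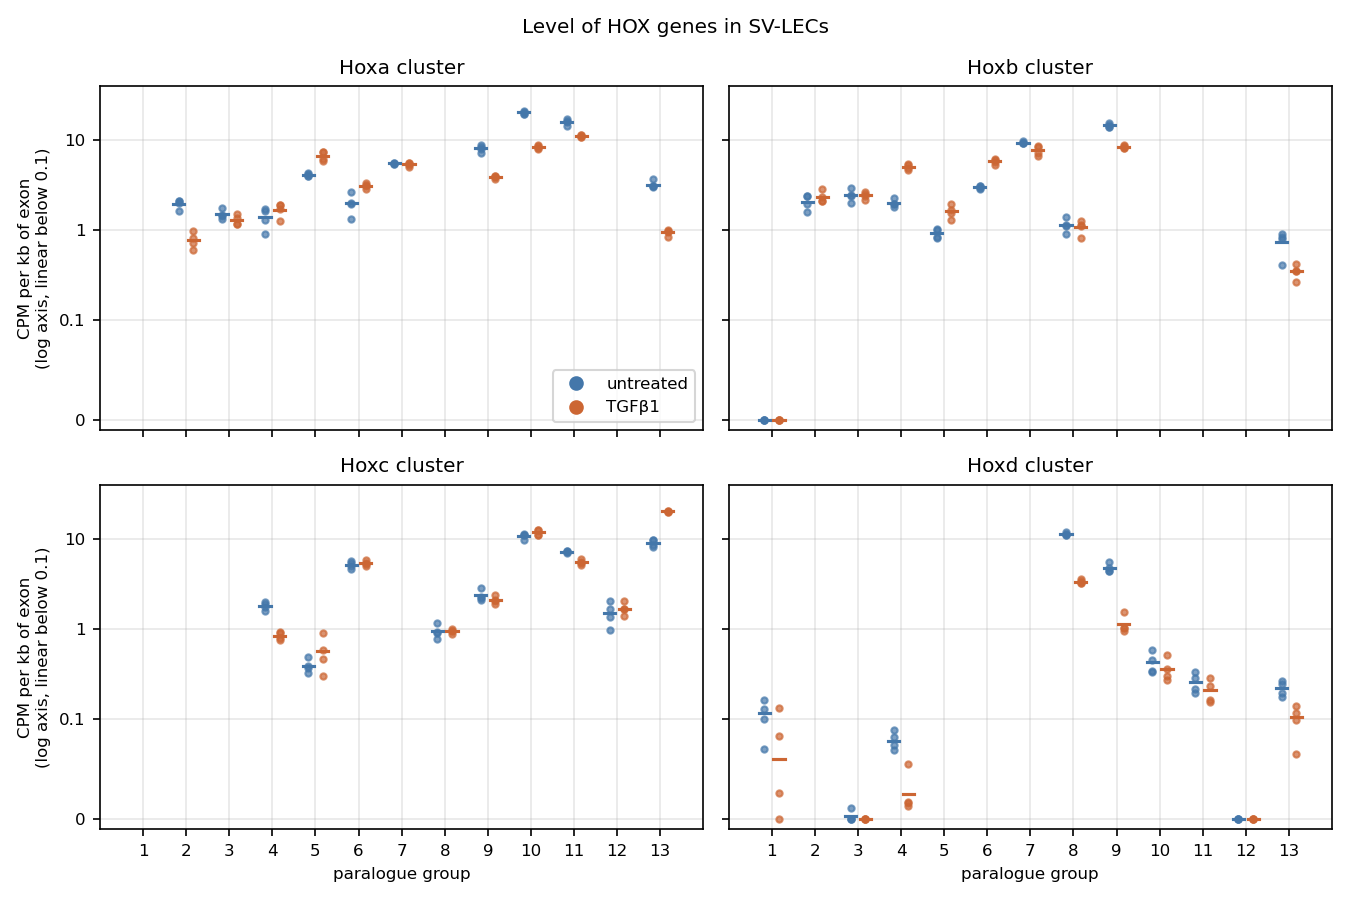
Level of HOX genes by cluster (panels) and paralogue group (horizontal axis), in CPM per kb of exon on a log axis that is linear below 0.1; points are the 4 libraries of a group and lines their mean. In the Hoxa and Hoxc panels every gene drawn lies above 0.1, while in the Hoxd panel only Hoxd8 and Hoxd9 have a mean above 1 CPM per kb.

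The comparison of the groups asked which HOX genes changed with TGFβ1. It was fitted on the whole table with the likelihood ratio test of edgeR, and 33 of the 39 genes were among the 13818 genes with enough counts to be tested. Hoxb1, Hoxd1, Hoxd3, Hoxd4, Hoxd12 and Hoxd13 were not tested. At an FDR of 0.05, 7 HOX genes rose, 12 fell and 14 were not called. Over all genes tested 75.6% were called, 37.6% having risen and 38.0% fallen, beside 21.2% and 36.4% of the tested HOX genes, so the share of HOX genes that fell was close to the background and the share that rose was below it. Changes of large size were more frequent downwards. Of the tested HOX genes 8 fell by more than 1 on the log2 scale, against 6.56% of all genes tested, and 2 rose by more than 1, against 10.9%. The libraries of the groups did not overlap for 6 of the HOX genes that rose and 11 of those that fell, beside 34.7% and 35.1% of all genes tested. The median log2 fold change of the tested HOX genes was -0.08, and that of all genes tested was -0.01. For a gene whose groups did not overlap, the exact two-sided permutation test of 4 against 4 libraries gives 0.0286, the smallest p-value it can give.

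**Figure D2:**
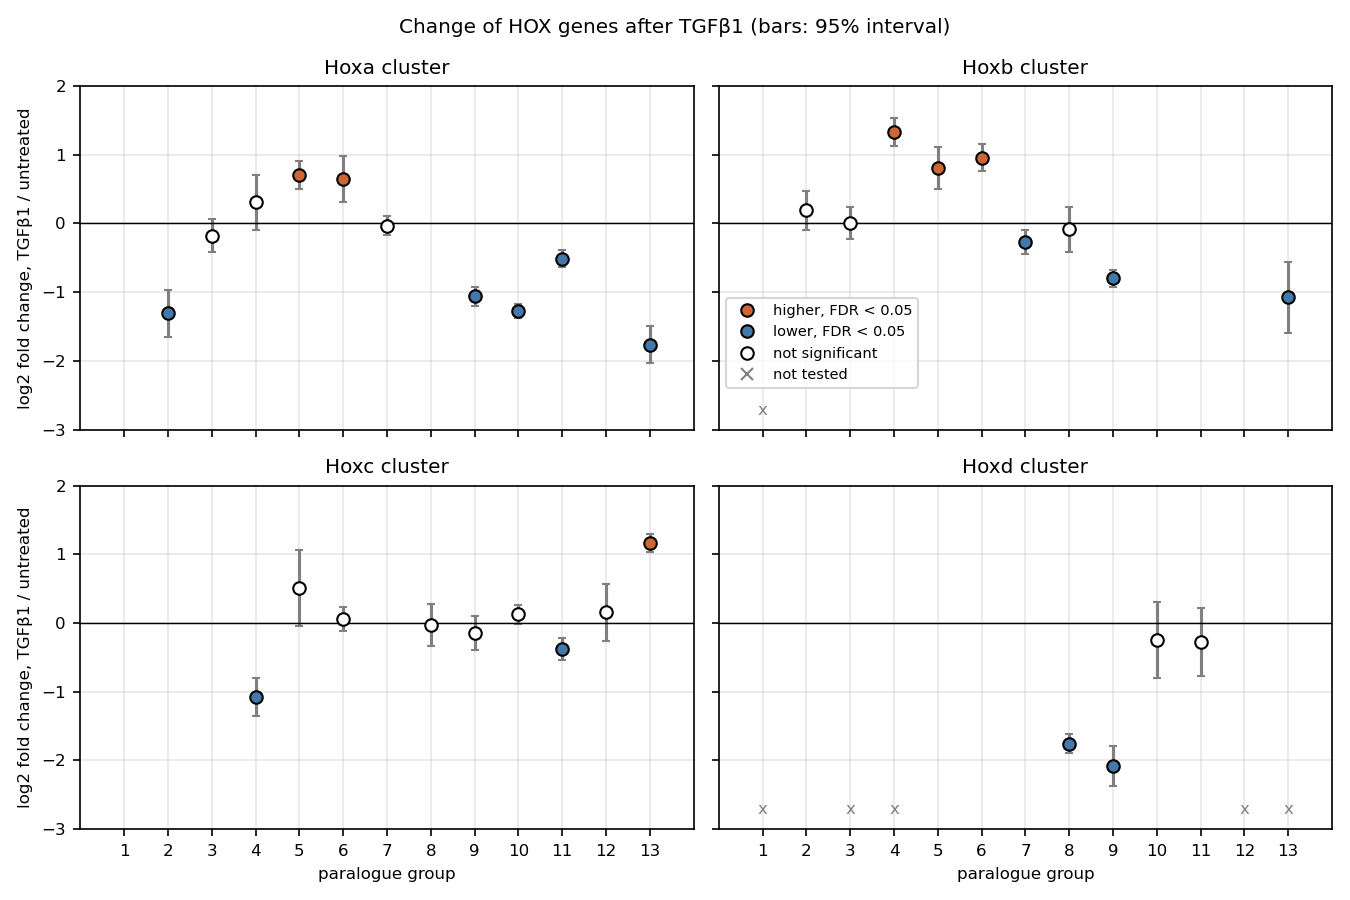
Log2 fold change of tested HOX genes (TGFβ1 over untreated) by cluster and paralogue group, with bars for the 95% interval; orange genes rose and blue genes fell at an FDR of 0.05, white genes were not called, and crosses mark genes that were not tested. The 4 posterior Hoxa genes lie below 0, Hoxb4 to Hoxb6 lie above it, and Hoxc13 is the single posterior gene that rose.

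By position and by cluster the calls were as follows, beside the 37.6% of all genes that rose and the 38.0% that fell. Among the central genes 5 of 14 tested rose and 3 fell, with a median log2 fold change of 0.18. Among the posterior genes 1 of 14 tested rose and 8 fell, with a median of -0.45. Among the anterior genes Hoxa2 fell, and Hoxa3, Hoxb2 and Hoxb3 were not called. By cluster, 3 of 11 tested Hoxa genes rose and 5 fell, 3 of 9 Hoxb genes rose and 3 fell, 1 of 9 Hoxc genes rose and 2 fell, and none of 4 Hoxd genes rose and 2 fell. These counts describe the genes, which share clusters and are not replicates, and no test of one position or cluster against another was made.

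The sequences before the start of 5 genes with changes of different direction are shown so that the genes described next can be set beside their promoters. Each is the 250 bases before the transcription start in RefSeq on GRCm38.p6, read 5′ to 3′ on the strand of the gene, for Hoxb4 (chr11:96318017-96318266, plus strand) and Hoxa5 (chr6:52204588-52204837, minus strand), which rose, and for Hoxd8 (chr2:74704365-74704614, plus strand), Hoxa13 (chr6:52260881-52261130, minus strand) and Hoxa2 (chr6:52164832-52165081, minus strand), which fell. Capitals mark the letters of a searched motif, and the genes were picked after their changes were seen from the 22 HOX genes with a RefSeq window.
Hoxb4: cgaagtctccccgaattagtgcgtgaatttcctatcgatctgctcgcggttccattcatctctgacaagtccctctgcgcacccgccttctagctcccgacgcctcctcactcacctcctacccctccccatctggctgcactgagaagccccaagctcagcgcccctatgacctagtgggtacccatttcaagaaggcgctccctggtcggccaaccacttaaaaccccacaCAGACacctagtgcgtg
Hoxa5: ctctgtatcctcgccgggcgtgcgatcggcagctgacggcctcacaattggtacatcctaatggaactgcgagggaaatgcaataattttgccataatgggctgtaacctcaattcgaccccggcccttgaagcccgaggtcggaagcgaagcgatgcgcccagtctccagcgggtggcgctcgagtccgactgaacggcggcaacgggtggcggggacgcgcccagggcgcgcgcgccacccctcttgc
Hoxd8: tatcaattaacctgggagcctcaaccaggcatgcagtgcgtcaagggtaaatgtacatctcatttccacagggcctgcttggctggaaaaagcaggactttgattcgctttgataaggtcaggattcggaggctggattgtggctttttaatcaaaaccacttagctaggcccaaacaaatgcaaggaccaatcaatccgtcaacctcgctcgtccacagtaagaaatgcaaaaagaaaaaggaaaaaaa
Hoxa13: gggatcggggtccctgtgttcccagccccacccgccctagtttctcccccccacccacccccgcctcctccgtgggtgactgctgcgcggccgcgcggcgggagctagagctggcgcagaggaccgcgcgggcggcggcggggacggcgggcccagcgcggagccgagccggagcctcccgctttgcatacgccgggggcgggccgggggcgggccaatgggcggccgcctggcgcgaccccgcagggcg
Hoxa2: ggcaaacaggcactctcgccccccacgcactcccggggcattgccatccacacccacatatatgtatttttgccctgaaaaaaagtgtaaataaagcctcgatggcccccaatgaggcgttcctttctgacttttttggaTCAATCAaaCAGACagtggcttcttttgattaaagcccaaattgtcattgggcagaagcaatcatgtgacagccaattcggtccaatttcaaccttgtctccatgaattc

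The motifs were searched on both strands in windows of 300 bases, 250 before and 50 after the start, and there were 24 such windows for the 22 genes and 32851 for all genes. CAGAC, which holds the core recognized by SMAD proteins of the TGFβ pathway, was in 9 of the 24 HOX windows and in 49.6% of all windows. Among the sequences shown it stands close to the start of Hoxb4, and once in Hoxa2. TGATTGA, a sequence bound by HOX proteins together with PBX, was in 3 HOX windows and in 2.7% of all windows, and it lies in Hoxa2 on the opposite strand just before the CAGAC letters, without overlapping them. The homeodomain core TAATTA was in 2 windows beside 5.29% of all, TTTATG, which is preferred by posterior HOX proteins, in 5 beside 11.9%, and the TATA box TATAAA in 4 beside 13.6%. A match is only a match of letters, and no match says only that these letters are not in this window. HOX windows had a median GC content of 57.7% and a median of 14.5 CpG dinucleotides, beside 52.7% and 7 over all windows. Base composition differed widely among the genes shown, from 80.0% GC and 35 CpG in the 250 bases of Hoxa13 to 44.4% and 6 in those of Hoxd8, and both genes fell by 1.76 on the log2 scale.

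The Hoxa cluster (chr6:52155590-52260880 in GRCm38) lost RNA from its posterior end and gained it from its middle. The 4 posterior genes Hoxa9, Hoxa10, Hoxa11 and Hoxa13 all fell, with a median log2 fold change of -1.17. Hoxa10, which patterns the lumbar skeleton and the uterus, was at 67.6, 64.6, 64.7 and 69.0 CPM in the untreated libraries and at 25.9, 26.7, 28.1 and 28.8 CPM after TGFβ1. The groups did not overlap, and every treated library was below the level of each untreated one by a wide margin. The log2 fold change of Hoxa10 was -1.28 (SE 0.0550, edgeR FDR = 7.38e-119). Hoxa9, a regulator of blood and endothelial progenitors, was at 46.9, 49.3, 40.5 and 44.4 CPM untreated and at 21.6, 20.6, 22.6 and 22.1 CPM treated, and it fell by 1.06 on the log2 scale (SE 0.0702, edgeR FDR = 1.89e-50). Its groups stood apart in the same way. Hoxa13, needed for the digits and the hindgut, went from 7.60, 9.08, 7.46 and 7.65 CPM to 2.38, 2.09, 2.51 and 2.40 CPM. It had the lowest level and the largest change of the 4 (log2 fold change -1.76, SE 0.138, edgeR FDR = 2.67e-40), and 1 untreated library lay above the other 3. Hoxa11, which acts in the forearm and the reproductive tract, changed least of them, from 39.6, 37.2, 33.2 and 36.4 CPM to 24.9, 25, 26.1 and 26.2 CPM (log2 fold change -0.52, edgeR FDR = 1.64e-15), and its groups did not overlap either.

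Of the 4 central Hoxa genes, Hoxa5 and Hoxa6 rose and Hoxa4 and Hoxa7 were not called. Hoxa5, which is needed for lung and airway development, was at 7.51, 7.54, 7.94 and 8.05 CPM in the untreated libraries and at 11.0, 13.7, 11.7 and 14 CPM after TGFβ1. All treated libraries exceeded all untreated ones, and the treated ones were the more spread out. Its log2 fold change was 0.71 (SE 0.102, edgeR FDR = 1.03e-11). Hoxa6 went from 2.31, 1.76, 1.70 and 1.17 CPM to 2.49, 2.77, 2.7 and 2.91 CPM (log2 fold change 0.65, SE 0.172, edgeR FDR = 0.000251), and the groups were separate but close, since the highest untreated library came near the lowest treated one. Hoxa7, the next gene along the cluster, was level: it was at 15.9 ± 0.0419 CPM untreated and at 15.5 ± 0.683 CPM treated (SD, n = 4), with a 95% interval of the log2 fold change from -0.17 to 0.11. Hoxa4 overlapped between the groups (1.46 to 2.74 CPM and 2.02 to 3.03 CPM), with an interval from -0.09 to 0.70.

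The anterior gene Hoxa2 fell as well. Hoxa2, the gene that gives the second branchial arch its identity, was at 3.75, 3.53, 3.75 and 2.89 CPM in the untreated libraries and at 1.46, 1.07, 1.28 and 1.74 CPM in the treated ones. The groups did not overlap, and the gene fell by 1.31 on the log2 scale (SE 0.174, edgeR FDR = 1.84e-14). Hoxa3 was not called, at 7.94 to 10.5 CPM and 7.05 to 9.19 CPM (edgeR FDR = 0.166).

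**Figure D3:**
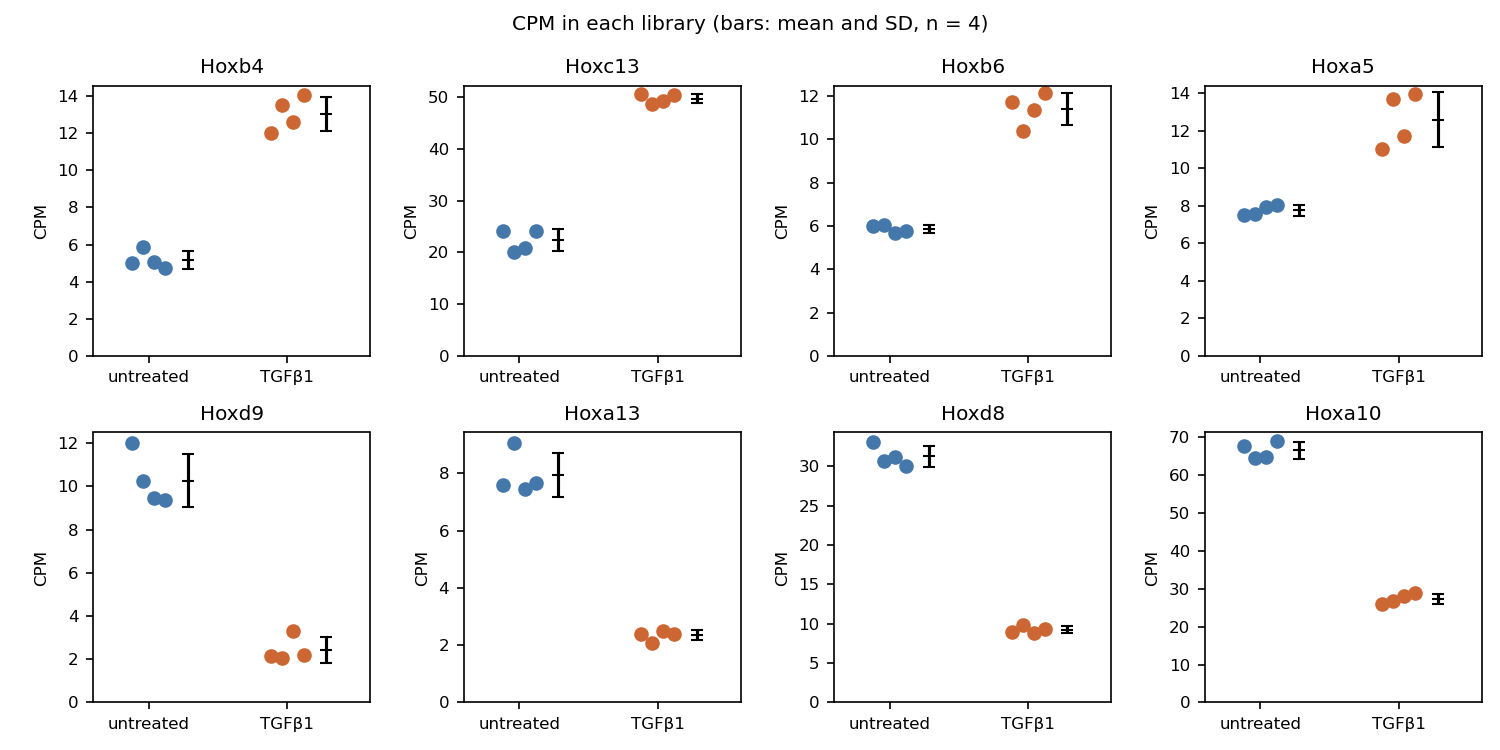
CPM of 8 HOX genes in each library of the untreated (blue) and TGFβ1-treated (orange) group, with the mean and SD of 4 libraries beside the points and each vertical axis starting at 0. Hoxb4, Hoxc13, Hoxb6 and Hoxa5 (top row) are higher in all treated libraries, and Hoxd9, Hoxa13, Hoxd8 and Hoxa10 (bottom row) are lower in all of them.

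In the Hoxb cluster (chr11:96194316-96368256) a run of 3 neighbouring central genes rose while the posterior genes fell. Hoxb4, known for expanding blood stem cells, was at 5.01, 5.89, 5.06 and 4.71 CPM in the untreated libraries and at 12, 13.5, 12.6 and 14.1 CPM in the treated ones. None of the tested HOX genes rose by more, and every treated library lay far above every untreated one (log2 fold change 1.33, SE 0.105, edgeR FDR = 8.17e-37). Hoxb5, which is used in the gut wall and the vasculature, went from 2.84, 2.89, 2.27 and 2.33 CPM to 4.32, 3.6, 5.46 and 4.69 CPM (log2 fold change 0.80, SE 0.156, edgeR FDR = 4.57e-07). Hoxb6 went from 6.02, 6.04, 5.67 and 5.78 CPM to 11.7, 10.4, 11.4 and 12.1 CPM (log2 fold change 0.96, SE 0.0979, edgeR FDR = 2.02e-22). For both genes all treated libraries lay above all untreated ones. Hoxb7, the next gene, fell slightly, from 14.2 to 15.1 CPM to 10.4 to 13.2 CPM, without overlap (log2 fold change -0.28, SE 0.0895, edgeR FDR = 0.00315). Hoxb8 was not called, with a 95% interval from -0.41 to 0.24.

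Hoxb9, a posterior gene that acts in the rib cage and the mammary gland, was the most abundant Hoxb gene per kb. It was at 38.4, 36.4, 40.4 and 36.4 CPM untreated and at 22.7, 20.9, 22.1 and 21.4 CPM treated, so it fell by 0.80 on the log2 scale (SE 0.0603, edgeR FDR = 1.07e-39). The libraries of its groups stood well apart. Hoxb13, a gene of the prostate and the tail that lies far from the rest of the cluster, was at trace level with 1.78, 1.84, 0.916 and 2.03 CPM untreated and 0.594, 0.924, 0.786 and 0.775 CPM treated. It passed the test (log2 fold change -1.07, SE 0.264, edgeR FDR = 5.95e-05), but 1 untreated library lay within the treated range and the exact permutation test gave 0.0571. The anterior genes Hoxb2 and Hoxb3 were not called, with 95% intervals from -0.10 to 0.47 and from -0.22 to 0.23.

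The Hoxc cluster (chr15:102921103-103036852) had 6 of its 9 tested genes not called, and its last gene rose. Hoxc13, which controls keratin genes of the hair and the nail, was at 24.2, 20.1, 20.9 and 24.2 CPM in the untreated libraries and at 50.6, 48.7, 49.2 and 50.4 CPM after TGFβ1. The treated libraries were close to each other and all well above the untreated ones. The log2 fold change was 1.16 (SE 0.0652, edgeR FDR = 8.04e-70), and the share of Hoxc13 in the summed Hoxc level went from 26.0% to 45.3%. Its neighbour with a call, Hoxc11, moved the other way, from 15.0, 14.6, 14.7 and 13.9 CPM to 11.0, 11.3, 10.4 and 11.9 CPM (log2 fold change -0.38, SE 0.0791, edgeR FDR = 2.72e-06). Between them Hoxc12 was low and overlapped, at 1.01 to 2.12 CPM and 1.43 to 2.09 CPM.

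At the other end of the cluster Hoxc4, the most anterior Hoxc gene, fell. It was at 5.05, 4.50, 4.10 and 4.81 CPM untreated and at 2.05, 1.95, 2.36 and 2.33 CPM treated (log2 fold change -1.08, SE 0.143, edgeR FDR = 3.1e-14). Its groups did not overlap, and its direction was opposite to that of its paralogue Hoxb4. Hoxc6, Hoxc8, Hoxc9 and Hoxc10 were not called, with log2 fold changes of 0.06, -0.03, -0.15 and 0.13. For Hoxc10, the most abundant Hoxc gene per kb before treatment, the 95% interval ran from -0.02 to 0.27. Hoxc5 was at 1.01 to 1.49 CPM untreated and varied widely among the treated libraries, at 2.81, 0.924, 1.82 and 1.43 CPM (log2 fold change 0.51, edgeR FDR = 0.0870).

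The Hoxd cluster (chr2:74668310-74765142) had no gene that rose, and its 2 genes that were on both fell. Hoxd8, which has been studied in lymphatic vessels as a target of Prox1, was at 33.1, 30.7, 31.2 and 30.0 CPM in the untreated libraries and at 8.92, 9.78, 8.85 and 9.34 CPM in the treated ones. The groups were far apart with little spread in either, and the gene fell by 1.76 on the log2 scale (SE 0.0726, edgeR FDR = 1.15e-137). Hoxd9, the neighbouring gene, was at 12, 10.2, 9.47 and 9.37 CPM untreated and at 2.16, 2.04, 3.29 and 2.21 CPM treated. No other HOX gene fell by as much (log2 fold change -2.08, SE 0.151, edgeR FDR = 2.17e-45), and 1 treated library lay above the other 3 without reaching the untreated range. Hoxd10 and Hoxd11, at trace level, were not called, with 95% intervals from -0.80 to 0.30 and from -0.76 to 0.22. Hoxd13, which is needed for the digits, was too low for the test, at 0.433, 0.60, 0.480 and 0.659 CPM untreated and 0.162, 0.292, 0.246 and 0.349 CPM treated. Its libraries did not overlap. It passed the test in a fit with no filter on low counts (log2 fold change -1.03, edgeR FDR = 0.00853) and in the 5 fits leaving out 1 library in which the filter kept it. In the fit with no filter Hoxd4 passed as well (log2 fold change -1.68, edgeR FDR = 0.0105), with a mean of 0.231 CPM untreated and treated libraries at 3 counts or fewer.

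The summed HOX RNA of SV-LECs fell, and the clusters changed unequally. The 39 genes together stood at 417 ± 15.3 CPM untreated and at 331 ± 11.2 CPM treated (SD, n = 4). The Hoxa sum went from 198 ± 8.18 to 123 ± 5.28 CPM and the Hoxd sum from 44.4 ± 2.50 to 13.6 ± 0.638 CPM, and neither range overlapped between the groups. The Hoxc sum went the other way, from 85.8 ± 3.23 to 110 ± 1.23 CPM. Hoxc13 alone went from 22.3 ± 2.15 to 49.7 ± 0.922 CPM, a gain larger than that of the whole sum. No other Hoxc gene was called as rising, and 2 fell. The Hoxb sum was 88.3 ± 3.81 and 84.9 ± 4.57 CPM, with libraries from 83.9 to 92.8 CPM and from 80.3 to 90.3 CPM, so it differed by less than the spread between libraries although 6 of its genes were called. A cluster sum weights long and abundant genes most, and Hoxd8 alone made up 70.4% of the Hoxd sum before treatment and 67.7% after it.

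Within the Hoxa and Hoxb clusters the posterior share shrank. Posterior genes took 78.9% ± 0.690 of the Hoxa sum untreated and 62.7% ± 0.942 treated, and 44.8% ± 2.29 and 26.6% ± 1.62 of the Hoxb sum (SD, n = 4). The central share went from 13.9% to 27.3% in Hoxa and from 35.3% to 51.5% in Hoxb. A share also moves when the other genes of the cluster change. The central sum went from 27.6 to 33.5 CPM in Hoxa and from 31.2 to 43.8 CPM in Hoxb. The posterior sum went from 156 to 77.0 CPM in Hoxa and from 39.5 to 22.5 CPM in Hoxb. In Hoxc, where Hoxc13 was the only posterior gene that rose, the posterior share moved the other way, from 75.5% ± 0.432 to 82.2% ± 1.02. In Hoxd it was 28.5% ± 1.28 and 30.9% ± 3.26, which overlapped between the groups. Ratios of single genes within a library show the same rearrangement without any scaling between libraries. Hoxa5 was at 0.111 to 0.123 of Hoxa10 in the untreated libraries and at 0.416 to 0.514 in the treated ones, and Hoxb4 was at 0.1253 to 0.162 of Hoxb9 and then at 0.529 to 0.659. Hoxc13 was 2.21 to 3.18 times Hoxa13 untreated and 19.6 to 23.3 times treated. These pairs were picked after the values were seen and are given as a description. A ratio shows that the genes of a pair changed unequally, not which of them changed.

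**Figure D4:**
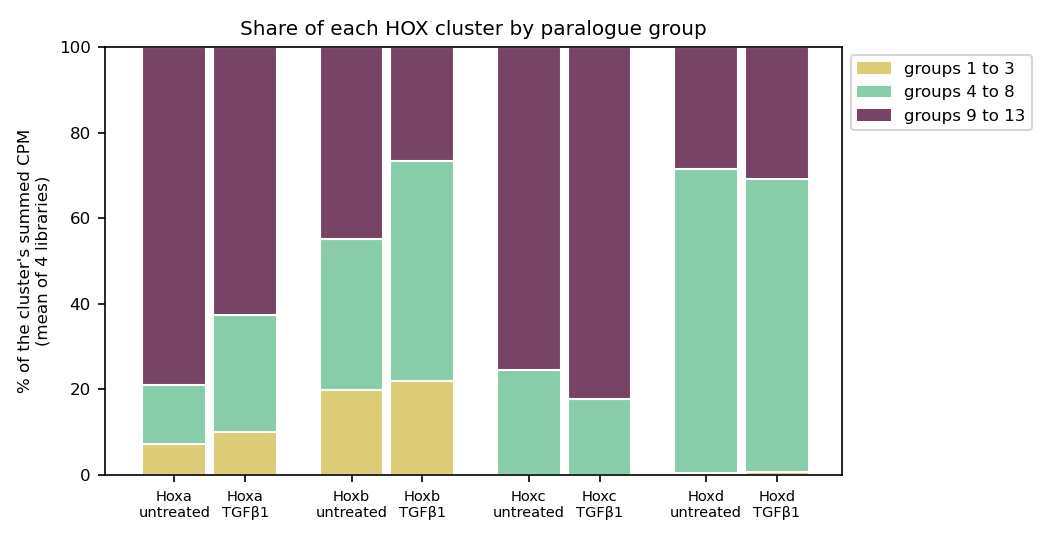
Share of each cluster's summed CPM (vertical axis, percent, mean of 4 libraries) held by paralogue groups 1 to 3, 4 to 8 and 9 to 13, untreated and after TGFβ1. The posterior share is smaller after TGFβ1 in Hoxa (62.7% against 78.9%) and Hoxb (26.6% against 44.8%) and larger in Hoxc (82.2% against 75.5%). Hoxc13 is the only posterior Hoxc gene that rose.

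Genes of the same paralogue group did not always move together. In group 5 Hoxa5 and Hoxb5 rose and in group 6 Hoxa6 and Hoxb6 rose, whereas Hoxc5 and Hoxc6 were not called. In group 9 Hoxa9, Hoxb9 and Hoxd9 fell and Hoxc9 was not called (95% interval from -0.40 to 0.10). In group 8 Hoxd8 fell, and Hoxb8 and Hoxc8 were not called. Group 4 held both directions, with Hoxb4 up and Hoxc4 down, and so did group 13, with Hoxc13 up and Hoxa13 and Hoxb13 down. In group 11 Hoxa11 and Hoxc11 fell, and in group 10 only Hoxa10 was called.

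Several HOX genes share exons with other genes in the GENCODE M21 annotation, and whether strand was used in counting is not given in the sources used here. Of the genes called, Hoxa5, Hoxa6, Hoxa10, Hoxa13, Hoxb4, Hoxb6, Hoxb7, Hoxb9, Hoxb13, Hoxc4, Hoxc11, Hoxc13, Hoxd8 and Hoxd9 shared no exon bases with another gene on either strand. Hoxa11 had 35% of its exon length opposite Hoxa11os, an antisense RNA that was at 8.96 ± 1.44 CPM untreated and 6.80 ± 0.542 CPM treated. Both fell, by 0.52 for Hoxa11 and by 0.39 for Hoxa11os on the log2 scale, the libraries of the latter overlapping. Hoxb3 had 52.9% and Hoxb2 27.3% opposite Hoxb3os, and none of these 3 genes was called. Hoxa2 shared 15.0% of its exons with Gm28308 on the same strand. Hoxa9 shared 1.52% with Mir196b on the same strand, and Hoxb5 had 3.59% opposite Hoxb5os. Among genes not called, Hoxa3, Hoxa4 and Hoxa7 had 25.4%, 16.0% and 20.4% of their exons opposite other genes. Hoxc5 and Hoxc10 shared 5.37% and 8.70% of their exons with each other on the same strand. Hoxd3 and Hoxd4 shared 62.3% and 52.3% of their exons with each other and with Gm28230 on the same strand, so reads there could have been left out or assigned to either gene, and their low counts are uncertain.

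The other annotated genes within the clusters, mostly noncoding and antisense RNAs, were counted in the same fit. Of 48 genes listed, which include Halr1 and Hottip from outside the spans given here, 10 were tested, 2 rose and 6 fell, with a median log2 fold change of -0.53, beside 37.6% and 38.0% of all genes tested. In the Hoxb cluster Gm53 rose from 3.32 to 4.81 CPM to 9.50 to 11.6 CPM (log2 fold change 1.35, edgeR FDR = 1.97e-28). Hoxaas2 and Hoxd3os1, antisense RNAs of the Hoxa and Hoxd clusters, fell by 1.32 and 1.05 on the log2 scale, and 9530018H14Rik fell by 1.28. Hotair, the noncoding RNA between Hoxc11 and Hoxc12 that has been linked to Polycomb and to Hoxd genes, was at 3.08, 2.96, 2.7 and 2.89 CPM untreated and at 2.00, 1.75, 1.97 and 1.67 CPM treated. It fell without overlap (log2 fold change -0.67, SE 0.151, edgeR FDR = 1.36e-05), in the same direction as Hoxc11. Of the genes that flank the clusters, 12 of the 14 listed were found in the table and 7 were tested. Hnrnpa1, Cbx5, Lnpk and Mtx2 fell, by 0.87, 0.52, 0.43 and 0.26, while Skap2, Hibadh and Smug1 were not called. The homeobox genes Evx1 and Evx2, which lie beside the posterior ends of Hoxa and Hoxd, had 0 counts in all libraries.

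HOX proteins bind DNA together with TALE homeodomain proteins, and all 9 genes of that class examined were on. Of these 3 rose and 5 fell, or 33.3% and 55.6%, beside 37.6% and 38.0% of all genes tested, with a median log2 fold change of -0.39. Meis2 went from 143 ± 6.35 to 84.5 ± 2.59 CPM (log2 fold change -0.76). Pknox1 fell by 0.69, and Pbx4 rose by 0.71 on the log2 scale.

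Of 23 Polycomb genes, all on in both groups, 8 rose and 14 fell, with a median of -0.35. Phf19, an accessory subunit of the complex that methylates histone H3 at lysine 27, went from 17, 16.2, 17.3 and 13 CPM to 2.00, 2.24, 2.31 and 2.40 CPM. It fell by more than any HOX gene (log2 fold change -2.82, SE 0.143, edgeR FDR = 2.13e-97). Cbx2 fell by 1.13 and the core subunit Suz12 by 0.78, while Phf1 rose by 0.66 and the core subunit Eed by 0.51. Of 11 Trithorax and related genes 4 rose and 6 fell. Kmt2a, the methyltransferase that maintains HOX expression, rose from 67.4, 70.5, 67.8 and 71.2 CPM to 148, 139, 128 and 135 CPM (log2 fold change 0.99, SE 0.0511, edgeR FDR = 3.56e-81). The groups did not overlap. Its partners Dpy30, Wdr5 and Men1 fell by 0.73, 0.68 and 0.62. Over all genes tested 37.6% rose and 38.0% fell, so calls in either direction were frequent among all genes as well. With total counts and no composition factors, 5 Polycomb genes rose in place of 8.

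Genes that make, sense or clear retinoic acid were mixed. Of 21 listed, with the CDX genes, 15 were tested, 8 rose and 6 fell, beside 37.6% and 38.0% of all genes tested. With a filter of 1 CPM in 4 libraries 11 were tested and 5 rose. Aldh1a1, which makes retinoic acid, fell from 477 ± 25.5 to 220 ± 13.7 CPM (log2 fold change -1.11), and its row in the table also carries the symbol E030003E18Rik. Aldh1a3 rose from 2.63 ± 0.515 to 8.70 ± 0.990 CPM (log2 fold change 1.71, edgeR FDR = 7.79e-33). Aldh1a2 had 2 counts or fewer in each untreated library and 19 to 35 counts in each treated one, for which no fold is given. The receptor gene Rarb, itself a retinoic acid target, rose by 1.10 to 2.65 ± 0.347 CPM, and Cyp26a1, which degrades retinoic acid, and the transporter gene Stra6 rose by 1.45 and 2.63 at mean treated levels under 1 CPM. Untreated libraries held 5 to 11 counts of Cyp26a1 and 0 to 5 of Stra6, so the sizes of these folds are uncertain. Cdx2 and Cdx4, activators of central HOX genes in the embryo, had 0 counts in all libraries, and Cdx1 had 1 count in 1 treated library.

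**Figure D5:**
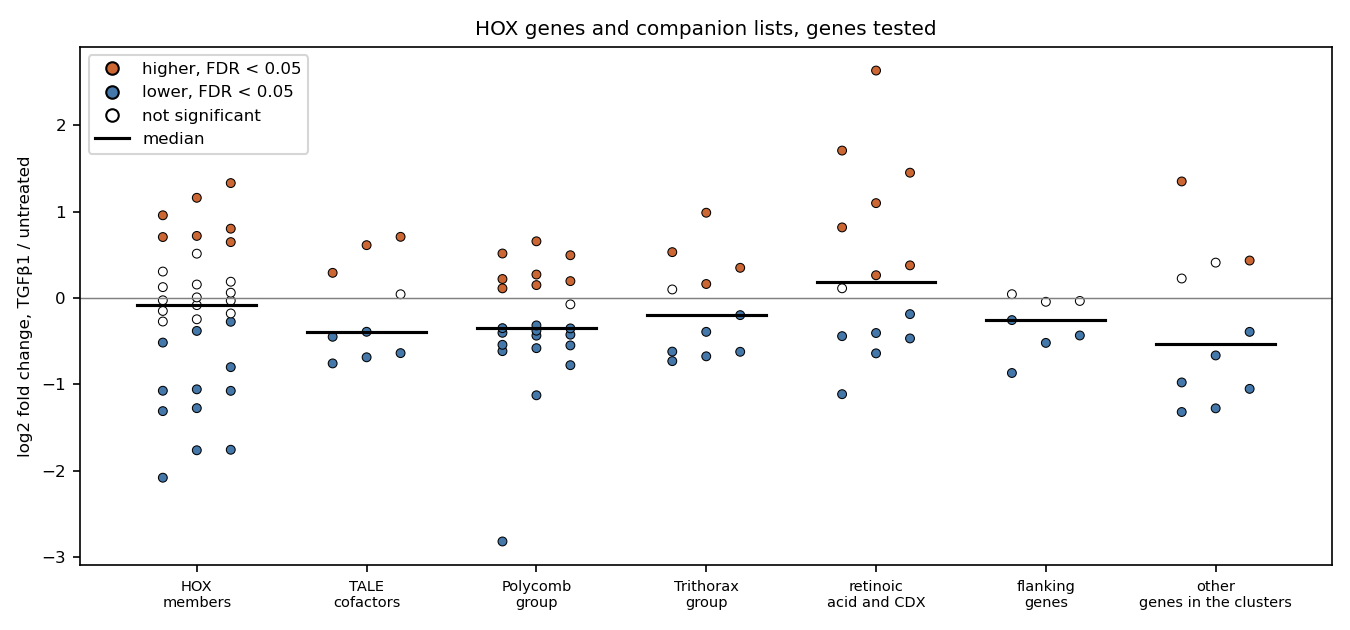
Log2 fold changes (TGFβ1 over untreated) of the tested HOX genes and of the tested genes in 6 companion lists; each point is a gene, coloured by its call at an FDR of 0.05, and the bar is the median. Aldh1a2 is left out because its untreated libraries were at the floor, and the lowest point is Phf19 at -2.82.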

How the data were processed

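RNA of SV-LECs was measured in 4 untreated and 4 TGFβ1-treated libraries, which were assigned to groups by their labels. Per the labels and the study's methods, the authors made the libraries with a TruSeq Stranded mRNA kit, sequenced single-end reads of 75 bases, used bcl2fastq 2.20.0.422, STAR 2.7.3a and featureCounts 1.5.1 with GRCm38 (mm10), and deposited an unnormalized table of raw counts for each gene. The strand setting and the annotation release used in counting are not given in the sources used here. If strand was not used in counting, reads from exons shared with an antisense gene could have been left out or assigned to either gene.

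The analysis used edgeR 4.0.16 in R 4.3.3 (filterByExpr at its default settings, TMM, estimateDisp, glmFit and glmLRT), following the study's choice of a generalized linear model, a likelihood ratio test and an FDR under 0.05. FDRs were adjusted by Benjamini and Hochberg's method across the 13818 tested genes. SEs come from the information of the fitted model, and 95% intervals were taken from them by a normal approximation. Exon lengths and overlaps came from GENCODE M21, and promoter windows came from RefSeq. Of the 39 genes, 22 matched a promoter window. In a self-test with known changes among 13620 genes, built on this comparison, the likelihood ratio test found 182 of 196 changed genes and 23 others (11.2% of its calls), the quasi-likelihood test 10 others and DESeq2 16 others, with no wrong sign. A far smaller share of genes was changed in the self-test than was called in the data.

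The HOX genes and the companion lists were chosen with earlier results of these data known. All HOX genes could be named, and from a companion list those called with a log2 fold change beyond 1 in size, its 3 largest changes and genes that bear on a HOX gene, with a few others added after their values were seen (Eed, Phf1, Men1, Mtx2 and the flanking genes that were not called). Alternative settings were DESeq2 1.42.0, the quasi-likelihood test, DESeq2 size factors in edgeR, total counts, no filter and a filter of 1 CPM in 4 libraries, an FDR of 0.01, a prior count of 2, a replicate block, levels of 0.5 and 5 CPM for a gene called on, and each library left out. Single results of 2 genes are not reported here and are not drawn by name, though counts and sums include them. The protein assays and other cell lines of the study were not analysed here.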

Additional observations from a re-analysis of the deposited data

Results flagged for a closer look

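In 2 of the 71 groups of 4 libraries in which a HOX gene was on or at trace level, 1 library lay so far from the other 3 that its gap, divided by the range of the group, exceeded Dixon's 95% critical value. Chance flags about 1 in 20 groups. Hoxa13 in the untreated group had a ratio of 0.883, with replicate 2 at 9.08 CPM and the other libraries between 7.46 and 7.65 CPM. Without that library the Hoxa13 log2 fold change was -1.69 in place of -1.76. Hoxd9 in the TGFβ1-treated group had a ratio of 0.866, with replicate 3 at 3.29 CPM and the others between 2.04 and 2.21 CPM. Without that library the Hoxd9 log2 fold change was -2.26 in place of -2.08. Both genes stayed below an edgeR FDR of 0.05 without the library concerned.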

How the results depend on the processing

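The 19 calls among HOX genes were shared by every alternative fit except the filter of 1 CPM in 4 libraries, which left 30 HOX genes and 18 of these calls, Hoxb13 being no longer tested. None of the called HOX genes changed direction. The count of HOX genes that rose was 7 to 8 and of those that fell 12 to 14 when single libraries were left out. The Hoxa3 log2 fold change passed the test without TGFβ1 replicate 4 (-0.26, edgeR FDR = 0.0400), the Hoxa4 log2 fold change without TGFβ1 replicate 3 (0.42, edgeR FDR = 0.0483) and the Hoxc5 log2 fold change without TGFβ1 replicate 2 (0.71, edgeR FDR = 0.0064). With no filter on low counts 14 HOX genes fell, of which 4 were Hoxd genes, Hoxd4 and Hoxd13 being added. With a level of 5 CPM in place of 1 CPM, 19 HOX genes counted as on in the untreated cells, and with 0.5 CPM 33 did. Of the other genes within the clusters, 1 in place of 2 rose with DESeq2, with total counts or at an FDR of 0.01. Total counts without composition factors moved the median log2 fold change of all genes by -0.07.

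The replicate numbers of the groups showed no pairing of the samples. Deviations of libraries with the same number correlated between -0.193 and -0.0336. Each untreated library correlated best with a treated library of another number, and these highest correlations were themselves low, from 0.0715 to 0.25. With a replicate block all genes called numbered 10152 in place of 10449, and the HOX genes that rose and fell numbered 7 and 12.

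Hoxb1 and Hoxd12 had 0 counts in all libraries, so no difference could be measured. Low counts kept Hoxd1, Hoxd3, Hoxd4 and Hoxd13 out of the main fit and left them to the fits that kept them. In the fit with no filter Hoxd1 and Hoxd3 did not pass (edgeR FDR = 0.215 and 0.331). In the self-test, with 196 of 13620 genes changed, the likelihood ratio test's share of false calls was 11.2%. In the data 75.6% of all genes tested were called, so that share cannot be carried over to the calls made here. Hoxa6 and Hoxb7 had FDRs among the largest of the 19 calls.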
